A study of Mus musculus with 24 samples.

Results

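The Xlr3, Xlr4 and Xlr5 genes are 9 protein-coding genes of the mouse X chromosome (Xlr3a, Xlr3b, Xlr3c, Xlr4a, Xlr4b, Xlr4c, Xlr5a, Xlr5b and Xlr5c), out of 55291 gene symbols in the deposited tables. They were chosen by name because their RNA was low in several of the groups below, so their levels and fold changes against the wild-type group are given as descriptions, with no test. All 9 had values in every library, and all 9 passed the minimum mean of 10 normalized counts that left 18713 genes for fitting.

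The study measured total RNA of E14Tg2a mouse embryonic stem cells (strain 129/Ola), grown without feeders in medium with leukemia inhibitory factor, CHIR99021 and PD0325901. Every group shares an auxin-inducible degron on endogenous CTCF, a DNA-binding protein of insulators with many zinc fingers. A transgene switched on by doxycycline encodes wild-type CTCF (WT) or CTCF with 1 of 9 single substitutions. There were 24 libraries in 12 groups of 2. WT UN is the WT transgene line without treatment, and WT IAA is the same line given 500 µM indole-3-acetic acid (IAA, an auxin), which degrades endogenous CTCF. WT ID is that line given IAA and 1 µg/ml doxycycline, and the lines R339Q, R342C, S354F, K365T, R377C, R377H, Q418R, R448Q and H455R were treated as WT ID was. Treatment lasted 2 days. Each substitution is carried by its own line, and the effects of line and substitution cannot be told apart. The labels do not say whether the 2 libraries of a group came from separate cultures, so errors and p-values cover only the variation among these libraries, possibly technical.

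Xlr stands for X-linked, lymphocyte-regulated. The proteins share a domain with Sycp3, a component of the synaptonemal complex that holds paired chromosomes together in meiosis. In mouse brain, Xlr3b, Xlr4b and Xlr4c are known as X-linked imprinted genes that are expressed mainly from the maternal chromosome. E14Tg2a cells are male, so the family is read from a single X chromosome here.

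The genes lie in a single interval of 219 kb (chrX:73074345-73292976, mm10, GENCODE M21 annotation). Along the chromosome the order is Xlr4a, Xlr3a, Xlr5a, Xlr5b, Xlr3b, Xlr4b, Xlr4c, Xlr3c and Xlr5c. Within each subfamily the copies a, b and c follow one another in that direction. Xlr5a is placed here by its RefSeq start, since GENCODE draws 1 of its transcripts out to the end of Xlr5c (chrX:73107635-73292976). Exons of Xlr5a and Xlr5c therefore overlap on the same strand, over 5.48% of the exon bases of Xlr5a and 6.07% of those of Xlr5c. No exon of the other 7 members overlaps another gene's exons.

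The 250 bases before the annotated starts show how alike the copies are, and 2 members of each subfamily are shown because their RNA moved by different amounts in the lines described below. The sequences are from RefSeq (GRCm38.p6), which has entries for all 9 members. The coordinates are Xlr3b, chrX:73191929-73192178, plus strand; Xlr3c, chrX:73265391-73265640, minus strand; Xlr4a, chrX:73082508-73082757, minus strand. For the others they are Xlr4c, chrX:73243131-73243380, minus strand; Xlr5b, chrX:73148591-73148840, plus strand; Xlr5c, chrX:73290516-73290765, minus strand. Each is written 5′ to 3′ on the gene's own strand, and capitals mark matches on either strand to CCAATCAG (a CCAAT box with its flank), GCATGCGC (the core bound by NRF1) and CCGGAAG (the core bound by ETS factors), where overlapping matches run together.
Xlr3b: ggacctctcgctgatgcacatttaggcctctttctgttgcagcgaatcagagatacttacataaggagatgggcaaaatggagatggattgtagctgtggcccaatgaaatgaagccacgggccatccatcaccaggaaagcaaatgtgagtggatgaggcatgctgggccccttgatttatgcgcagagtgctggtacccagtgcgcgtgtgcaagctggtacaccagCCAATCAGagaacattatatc
Xlr3c: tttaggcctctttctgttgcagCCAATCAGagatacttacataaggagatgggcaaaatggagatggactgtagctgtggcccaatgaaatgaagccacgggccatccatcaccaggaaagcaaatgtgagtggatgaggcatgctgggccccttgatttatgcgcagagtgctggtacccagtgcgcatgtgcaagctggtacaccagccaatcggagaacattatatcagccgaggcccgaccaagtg
Xlr4a: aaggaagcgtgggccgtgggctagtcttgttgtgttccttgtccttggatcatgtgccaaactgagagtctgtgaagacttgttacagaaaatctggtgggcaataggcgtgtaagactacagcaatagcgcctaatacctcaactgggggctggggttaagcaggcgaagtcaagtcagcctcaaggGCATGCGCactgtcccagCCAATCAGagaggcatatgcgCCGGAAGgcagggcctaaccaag
Xlr4c: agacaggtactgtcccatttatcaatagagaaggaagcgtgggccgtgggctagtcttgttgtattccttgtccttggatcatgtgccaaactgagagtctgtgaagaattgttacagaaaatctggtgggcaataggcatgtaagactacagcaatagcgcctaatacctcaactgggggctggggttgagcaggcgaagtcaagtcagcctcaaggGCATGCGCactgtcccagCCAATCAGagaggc
Xlr5b: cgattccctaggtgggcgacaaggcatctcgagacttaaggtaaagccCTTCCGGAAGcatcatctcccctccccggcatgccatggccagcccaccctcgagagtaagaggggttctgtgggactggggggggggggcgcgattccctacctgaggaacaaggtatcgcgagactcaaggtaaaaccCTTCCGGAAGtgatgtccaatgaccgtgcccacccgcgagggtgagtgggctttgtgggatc
Xlr5c: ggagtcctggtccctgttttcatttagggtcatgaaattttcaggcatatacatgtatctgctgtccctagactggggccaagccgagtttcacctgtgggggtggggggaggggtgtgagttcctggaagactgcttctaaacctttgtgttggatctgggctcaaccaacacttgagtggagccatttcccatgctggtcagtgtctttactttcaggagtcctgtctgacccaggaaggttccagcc

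CCAATCAG was present in all Xlr3 and Xlr4 copies, as in 4.07% of the 27025 promoters searched over the same 250 bases. GCATGCGC was present in the 3 Xlr4 copies, against 2.32% of all promoters. CCGGAAG was found in Xlr4a, Xlr4b, Xlr5a and Xlr5b, against 7.05%. The window of Xlr4c ends before the place where this match lies in Xlr4a and Xlr4b, so its absence from Xlr4c is not shown. CACGTG (an E-box; 6.05% of all promoters) was in 0 of 9. The upstream window of Xlr5b held 14 CpG dinucleotides and that of Xlr5c held 1, against a median of 6 over all promoters. The RefSeq start of Xlr5c lies inside its GENCODE gene (chrX:73282896-73292976, minus strand). Its window may therefore not be placed as those of Xlr5a and Xlr5b are, which limits any comparison with them. In each pair the 200 bases before 1 gene's start were placed where they aligned best in the other gene's window. That window ran 50 bases past the start. By this measure Xlr5a and Xlr5b were identical, and Xlr4b and Xlr4c were 99% identical. Xlr3b and Xlr3c were 98.5% identical, while Xlr5c shared 52.5% with Xlr5a or Xlr5b. Members of different subfamilies were about as far apart, with 50.5% between Xlr3a and Xlr5a.

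The copies are also alike within their transcripts, which limits how well short reads tell them apart. Of all stretches of 150 bases (the read length) in the annotated transcripts, 87.8% were unique to the gene for Xlr3a, 81.3% for Xlr3b and 70.4% for Xlr3c. The share was 59.6% for Xlr4a, 67.2% for Xlr4b and 54.6% for Xlr4c. It was 50.7% for Xlr5a, 29.4% for Xlr5b and 52.3% for Xlr5c. How reads that match several places were counted is not given in the sources used here, so the split between copies of a subfamily is less certain than their sum, most of all for Xlr5b. The 6 annotated Xlr3, Xlr4 and Xlr5 pseudogenes held at most 9 reads each in any library and together 0.127% of the reads of the 9 members.

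Libraries held 27.8 to 77.1 M reads (M, reads in units of 1000 × 1000) recovered from the normalized counts. Reads over the 9 members ranged from 727 in R339Q replicate 1 to 9269 in WT ID replicate 1, and the fewest for 1 member were 3. All 8 listed embryonic stem cell markers had a median of at least 1 TPM (a level scaled by gene length to a fixed sum per library), with summed levels of 8183 to 10304 TPM per library. Summed markers were at most 11.7 TPM per library for fibroblasts, 17.1 for primitive endoderm and 23.9 for lymphocytes. Primitive endoderm markers summed to 6.48 TPM in WT ID, 15.4 in R342C, 14.1 in S354F, 12.8 in R339Q, 5.755 in R448Q and 6.13 in Q418R. Fibroblast markers summed to 4.15 TPM in WT ID and 4.16 (R448Q) to 10.2 (H455R) in the mutant lines. The lymphocyte sum was mostly Cd3e, with a median of 10.5 TPM over the libraries and group means of 10.4 in WT ID, 21.7 in R339Q and 20.6 in H455R, whereas Ptprc had a median of 0. Germ cell markers summed to 98.7 TPM in WT ID and to 89.9 (Q418R) to 155.0 (R377H) in the mutant lines. Their part in the results was not tested. Ctcf RNA was 10196 ± 315 normalized counts (SD, n = 2) in WT ID, 20431 ± 326 in R448Q and 16851 ± 141 in H455R, and 8582 to 11894 in the other mutant lines. In WT IAA, without doxycycline, it was 9180 ± 95.6, so these counts do not measure the transgene alone. In bulk RNA, fewer cells expressing a gene and less RNA per cell cannot be told apart.

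**Figure D1:**
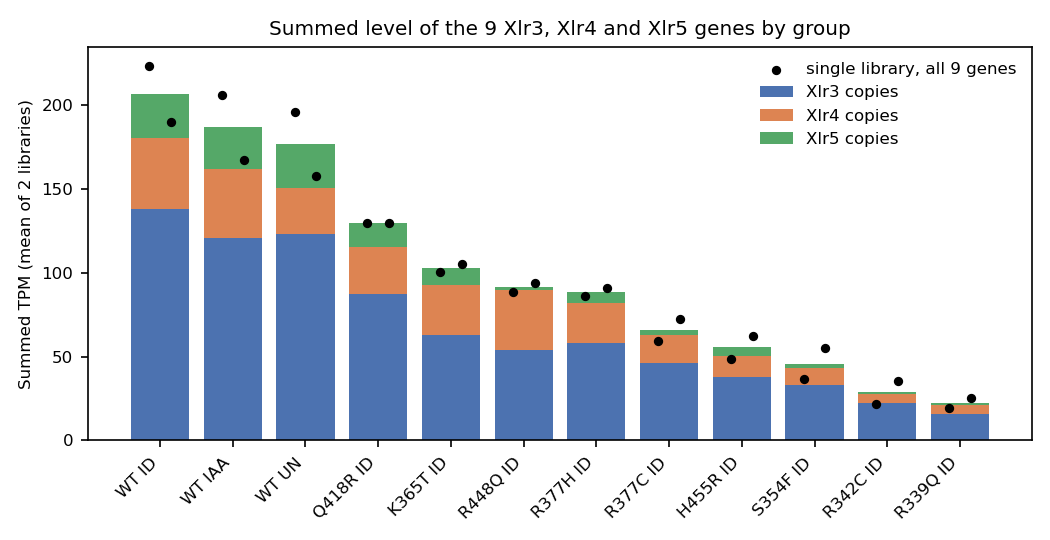
Summed TPM of the 9 genes in each of 12 groups, with stacked bars for the mean of 2 libraries by subfamily and points for the single libraries. The bars run from 206.6 TPM in WT ID to 22.3 TPM in R339Q, and the 6 points of the 3 groups of the WT transgene line lie above all 18 points of the mutant lines.

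Summed over the 9 genes, the level was highest in the 3 groups of the WT transgene line and lower in all 9 mutant lines. In WT ID the sum was 223.2 and 190.0 TPM in the 2 libraries. In WT IAA, where CTCF was degraded with no transgene switched on, it was 206.0 and 167.2 TPM. In WT UN it was 195.8 and 157.3 TPM, from tables that were normalized separately. The libraries of WT ID overlapped with those of WT IAA, and these with WT UN, while both WT UN libraries lay above every mutant library.

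Q418R followed with 129.8 and 129.5 TPM, a mean of 62.8% of WT ID. K365T held 100.6 and 105.0 TPM, R448Q 88.7 and 94.0 TPM, and R377H 86.0 and 91.0 TPM. These 4 lines kept between 42.8% and 62.8% of the WT ID level. R377C held 59.2 and 72.5 TPM, H455R 48.6 and 62.5 TPM, and S354F 36.6 and 54.99 TPM. The lowest sums were those of R342C, with 21.9 and 35.6 TPM, and R339Q, with 19.0 and 25.5 TPM. R339Q was at 10.8% of WT ID, 9.27-fold lower. In this order the libraries of R448Q and R377H, R377C and H455R, H455R and S354F, and R342C and R339Q overlapped with one another, and the other neighbouring mutant lines did not overlap.

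Levels differed between members already in WT ID. Xlr3c was the most abundant at 76.1 ± 6.68 TPM (SD, n = 2), followed by Xlr3b at 32.4 ± 2.53 and Xlr3a at 29.4 ± 3.08 TPM. The 3 Xlr3 genes had nearly equal normalized counts in WT ID (1582 to 1629), so their order in TPM follows from the annotated exon length of 1584 bases for Xlr3c, 3780 for Xlr3b and 4045 for Xlr3a. Xlr4a stood at 23.2 ± 5.21 TPM, Xlr4b at 11.8 ± 1.47 and Xlr4c at 7.04 ± 1.45. Xlr5b and Xlr5a were close at 10.1 ± 1.07 and 9.75 ± 1.03 TPM, and Xlr5c was lowest at 6.76 ± 0.99. Xlr4c and Xlr5c overlapped in their libraries.

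**Figure D2:**
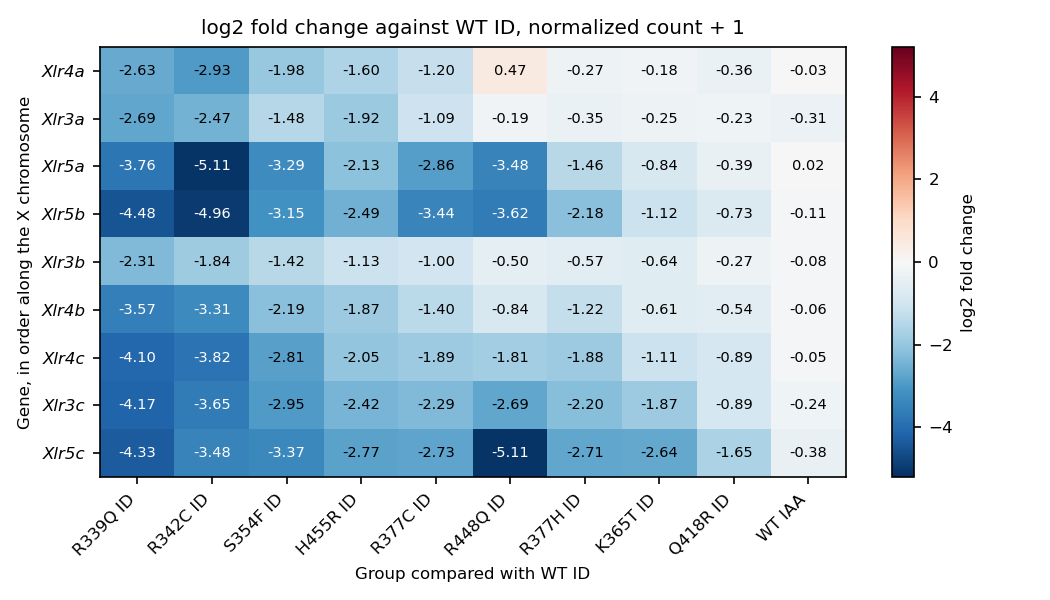
Grid of log2 fold changes of each member (rows, in order along the X chromosome) in each of 10 comparisons with WT ID (columns, ordered by the median over members), fitted on log2(normalized count + 1). Values run from −5.11 to 0.47, the column of WT IAA stays between −0.38 and 0.02, and Xlr4a in R448Q is the highest cell of the mutant lines.

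Degradation of CTCF without the transgene, and its replacement by wild-type CTCF, gave similar levels of the family. Log2 fold changes here and below come from a limma fit over 22 libraries on log2(normalized count + 1), with standard errors. In WT IAA against WT ID the median over members was −0.08 and the range −0.38 (Xlr5c) to 0.02 (Xlr5a). The count of members at least 2-fold lower with no overlap of libraries was 0 of 9, where 2.34% of all 18713 genes met that rule. Xlr5c had 136 and 96.4 normalized counts in WT IAA and 159 and 139 in WT ID. Xlr3a, Xlr3c and Xlr5c had both libraries below WT ID (3 of 9; all genes, 32.4%), and the other 6 members overlapped.

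Untreated cells could be set beside WT ID only by TPM. The median log2 ratio of WT UN to WT ID was −0.17 over the members and −0.19 over all genes tested. Xlr3b was at 22.01 and 18.04 TPM in WT UN against 34.2 and 30.6 in WT ID. Xlr4a, Xlr4b and Xlr4c were also below WT ID in both libraries, with log2 ratios of −0.59, −0.81 and −0.40, and the other 5 members overlapped. In this comparison 50.3% of all genes were below WT ID in both libraries.

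In R339Q all 9 members were at least 2-fold lower than in WT ID with no overlap of libraries (all genes, 2.62%). The median log2 fold change was −3.76, from −2.31 ± 0.20 for Xlr3b to −4.48 ± 0.36 for Xlr5b. Xlr3b fell from 1660 and 1598 normalized counts in WT ID to 263 and 407. Xlr3c went from 1644 and 1561 to 88.1 and 88.0 normalized counts. By TPM, Xlr3b was at 5.15 and 8.48 and Xlr3c at 4.11 and 4.38 in R339Q, so that the order of these genes in WT ID (34.2 and 30.6 against 80.8 and 71.4 TPM) was turned around. Xlr5b dropped from 243 and 225 to 12.6 and 7.13 normalized counts, which rest on 13 and 6 reads.

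R342C also had all 9 members at least 2-fold lower (all genes, 1.75%), with a median of −3.48. The order of the members differed from that in R339Q in that the Xlr5 copies a and b were lowest. Xlr5a fell from 248 and 230 normalized counts to 5.05 and 6.96 (log2 fold change −5.11 ± 0.30). Xlr5c, at −3.48 ± 0.36, kept 11.1 and 13.9 normalized counts from 159 and 139. By TPM it was at 0.561 and 0.645 in R342C, above the 0.230 and 0.291 of Xlr5a, although it was the lower of these genes in WT ID.

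S354F had all 9 members at least 2-fold lower (all genes, 1.69%) with a median of −2.81 and a range of −3.37 (Xlr5c) to −1.42 (Xlr3b). Its libraries differed from each other, with 1443 and 1957 normalized counts summed over the members. H455R likewise had 9 of 9 (all genes, 2.47%), with a median of −2.05 and a range of −2.77 to −1.13. In H455R the 3 Xlr4 copies were close together, at −1.60 ± 0.24, −1.87 ± 0.23 and −2.05 ± 0.38.

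The lines R377C and R377H carry different substitutions of the same residue. R377C had 9 of 9 members at least 2-fold lower (all genes, 0.994%), and R377H had 6 of 9 (all genes, 3.72%). In R377H both libraries of the other 3 were below WT ID too, as were those of 32.6% of all genes. The medians were −1.89 and −1.46. Xlr4a illustrates the contrast: it held 192 and 216 normalized counts in R377C and 396 and 378 in R377H, against 530 and 413 in WT ID. Xlr3a was similar, with 659 and 842 normalized counts in R377C and 1223 and 1257 in R377H, against 1642 and 1522. Xlr3c overlapped between the lines, at 280 and 379 in R377C and 296 and 412 in R377H, and so was Xlr5c, at 19.8 and 23.5 against 17.7 and 27.2. Both comparisons share the WT ID libraries, and the difference between the lines was not tested.

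K365T had 4 of 9 members at least 2-fold lower (all genes, 4.27%), namely Xlr3c, Xlr4c, Xlr5b and Xlr5c. At a 1.5-fold limit the count was 7. Xlr5c fell from 159 and 139 normalized counts to 23.4 and 22.7, a log2 fold change of −2.64 ± 0.36. Xlr3c fell from 1644 and 1561 to 422 and 454, at −1.87 ± 0.25. Xlr3a, near the other end of the interval, had 1271 and 1386 normalized counts against 1642 and 1522, at −0.25 ± 0.21.

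Q418R was the mutant line nearest to WT ID. Only Xlr5c passed the 2-fold rule (1 of 9; all genes, 3.06%), with 34.2 and 63.8 normalized counts against 159 and 139 and a log2 fold change of −1.65 ± 0.36. Without replicate 2 of Q418R or replicate 2 of WT ID the count was 2, and at 1.5-fold it was 4. All 9 members had both libraries below WT ID, as had 31.6% of all genes. The median was −0.54.

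R448Q spread the members farther apart than any other line. There, 5 of 9 were at least 2-fold lower (all genes, 8.82%): Xlr3c, Xlr4c, Xlr5a, Xlr5b and Xlr5c. Xlr5c fell to 3.02 and 3.70 normalized counts, which is 3 and 4 reads. Summed over libraries and scaled, this was 2.24% of WT ID, with an exact 95% interval of 0.892% to 4.65% that covers counting error only. Xlr5a had 28.2 and 14.8 normalized counts against 248 and 230.

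Xlr4a in R448Q was higher than in WT ID, with 621 and 679 normalized counts against 530 and 413 (0.47 ± 0.24). It was the single member with both libraries of a mutant line above WT ID, and 38.1% of all genes were above in that comparison. Xlr3a had 1384 and 1380 normalized counts against 1642 and 1522 (−0.19 ± 0.21). These are the first 2 members of the interval, and Xlr5c is the last. In R448Q the Xlr5 copies made up 1.77% of the family's summed TPM and the Xlr4 copies 39.4%, against 12.9% and 20.3% in WT ID.

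No line had a member at least 2-fold higher than WT ID with no overlap (0 of 9). The share of all genes at least 2-fold higher in that way was 3.37% in WT IAA, 5.19% in R339Q, 4.63% in R342C, 2.86% in S354F and 5.11% in K365T. R448Q had 5.89%, H455R 4.64%, R377H 4.13%, Q418R 3.87% and R377C 2.84%. The 10 comparisons share the WT ID libraries, so a change of WT ID would move them all. The median log2 fold change of the other X-linked genes tested was between −0.11 (R342C) and 0.07 (R448Q).

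**Figure D3:**
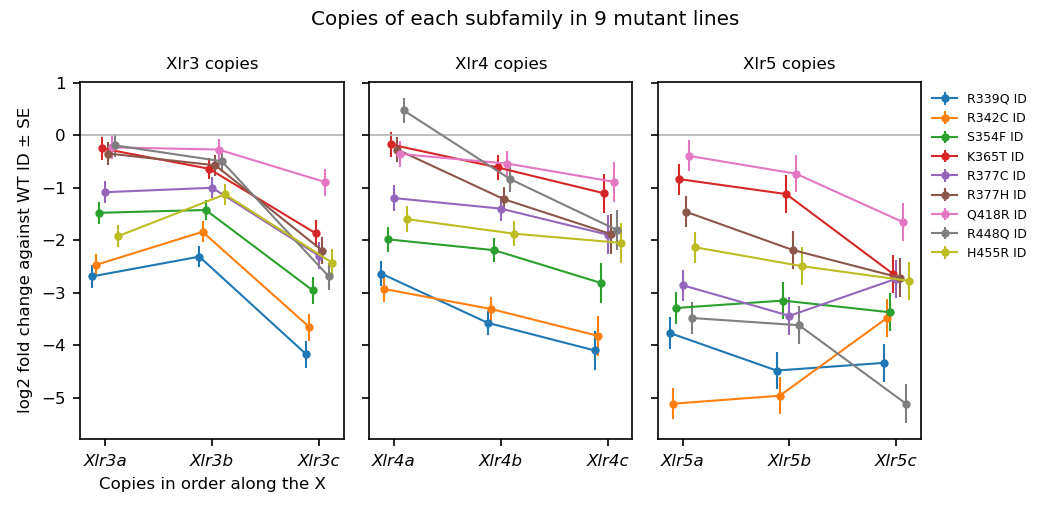
Log2 fold change against WT ID with its standard error for copies a, b and c of each subfamily in the 9 mutant lines, in 3 panels with lines joining the copies of 1 mutant line. Copy c is lowest in 9 of 9 lines for Xlr3 and Xlr4 and in 6 of 9 for Xlr5.

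Within each subfamily the fold change depended on the copy. For Xlr3, copy c was lowest in 9 of 9 lines, and the difference in log2 fold change between Xlr3c and Xlr3a had a median of −1.48 and a range of −2.49 to −0.50. For Xlr4, copy c was lowest in 9 of 9 lines and the values fell in the order a, b, c in all 9, with a median difference between c and a of −0.89. For Xlr5, copy c was lowest in 6 of 9 lines, highest in 2, and c minus a ranged from −1.80 to 1.63. As a, b and c follow one another along the chromosome in all 3 subfamilies, copy and position cannot be told apart.

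The upstream sequences printed above can be set beside these differences. Xlr3b and Xlr3c were 98.5% identical by the alignment above. Their log2 fold changes differed by a median of 1.53 over the 9 lines, with Xlr3c lower in 9 of 9. In R448Q they differed by 2.19: Xlr3b had 1104 and 1207 normalized counts and Xlr3c 244 and 252. Xlr3a and Xlr3b, which were 87.5% identical, differed by a median of 0.30. Xlr4b and Xlr4c, at 99% identity, differed by a median of 0.51, and Xlr5a and Xlr5b, which were identical, by 0.34. Xlr5c, whose window lies inside its GENCODE gene and resembles neither, differed from Xlr5a by a median of 1.25 and from Xlr5b by 0.71. For the remaining pairs the medians were 1.48 for Xlr3a and Xlr3c (81% identical), 0.89 for Xlr4a and Xlr4c (98.5%) and 0.38 for Xlr4a and Xlr4b (98.5%). Whether identity orders the differences between copies was not tested.

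Across lines, each gene had its own range. Xlr5b had the lowest median over the 9 mutant lines, at −3.15, followed by Xlr5a at −2.86 and Xlr5c at −2.77. Xlr3c had a median of −2.42 and Xlr4c of −1.89. The highest medians were those of Xlr3b at −1.001 and Xlr3a at −1.09. Xlr5c was at least 2-fold lower with no overlap in 9 of 9 lines, Xlr3c, Xlr4c and Xlr5b in 8, Xlr5a in 7, Xlr4b in 6, and Xlr3a, Xlr3b and Xlr4a in 5. Over the 22 libraries of 1 table the 36 pairs of members had Pearson correlations of log2 values between 0.40 (Xlr4a with Xlr5c) and 0.97, with a median of 0.88. These points share libraries, and copies share reads, so the correlations are descriptions.

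The interval also holds 5 other annotated genes, of which 4 passed the expression filter, and 3 of these were very low in the same lines. They are named for their position, after their values were seen, and were not tested. DXBay18 (chrX:73137232-73149450, minus strand) starts head to head with Xlr5b on the other strand. It had 48.8 ± 13.7 normalized counts in WT ID, 39.2 ± 7.13 in Q418R, 12.01 ± 8.70 in K365T and 0 reads in both R448Q libraries. Gm14685 (chrX:73117047-73129262, plus strand) is placed in the same way beside the RefSeq start of Xlr5a. It had 31.3 ± 0.262 normalized counts in WT ID, 21.9 ± 0.269 in Q418R, 3.02 ± 2.58 in R339Q and 0.924 ± 1.31 in R448Q. Spin2d, a gene of the spindlin family (chrX:73175302-73176989), had 36.9 ± 14.0 normalized counts in WT ID and 37.6 ± 3.83 in WT IAA, against 3.72 ± 0.217 in R339Q and 2.86 ± 1.19 in R448Q. In Q418R it overlapped with WT ID, at 32.8 ± 4.20. The strand setting of the counting is not given in the sources used here, so genes on opposite strands may share reads.

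F8a, the fourth gene (chrX:73228291-73230795), lies between Xlr4b and Xlr4c and encodes a huntingtin-associated protein. F8a had 181.8 ± 61.5 normalized counts in WT ID and 91.8 ± 0.334 in R339Q, a log2 fold change of −0.94 ± 0.23 (limma, Benjamini-Hochberg adjusted p = 0.00688). It was also called lower, at an adjusted p under 0.05, in R448Q (−0.79), R342C (−0.73), Q418R (−0.72) and R377H (−0.70). Without replicate 1 of WT ID none of these 5 calls held, and the adjusted p for R339Q was then 0.163. In R339Q, Xlr4b and Xlr4c on either side had log2 fold changes of −3.57 ± 0.23 and −4.10 ± 0.38. In Q418R they had −0.54 and −0.89, on either side of the value of F8a, and in R448Q −0.84 and −1.81. The difference between F8a and its neighbours was not tested.

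**Figure D4:**
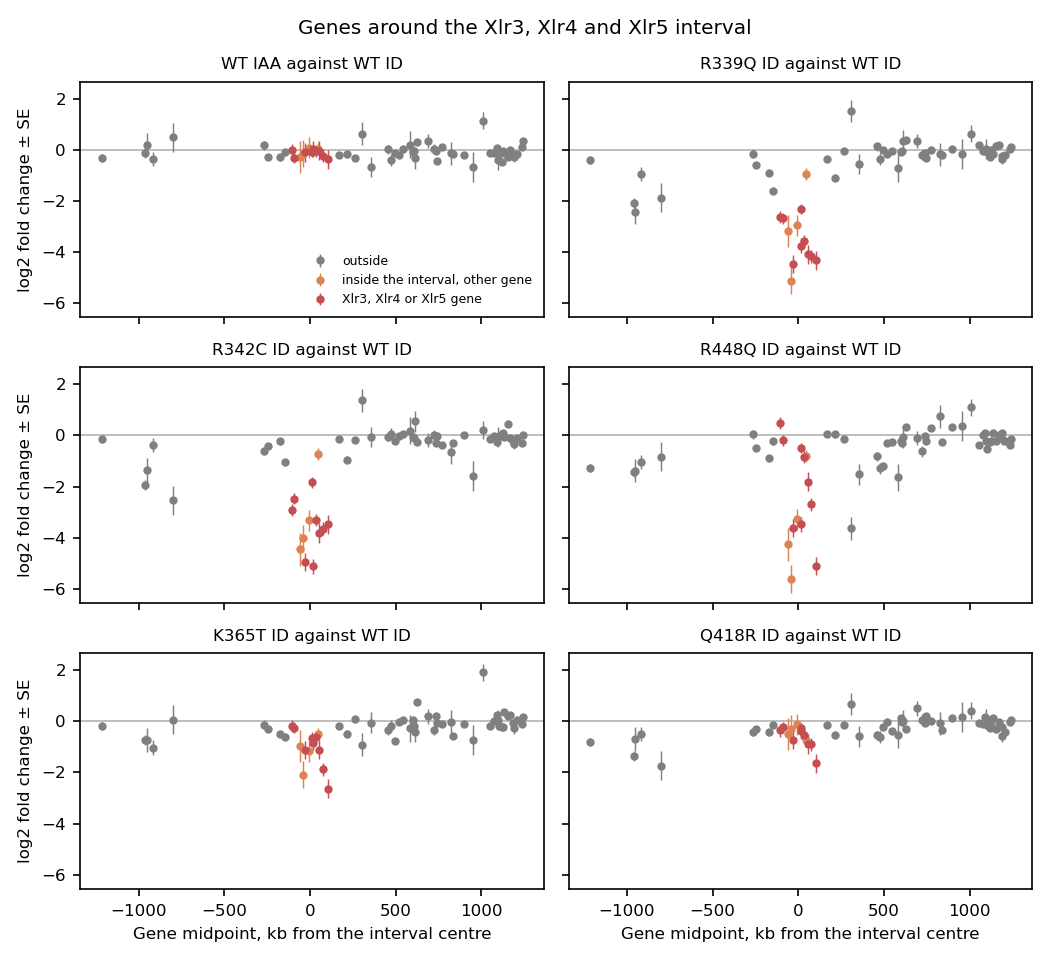
Log2 fold change with its standard error of each tested gene within 1200 kb of the interval, against the distance of its midpoint from the interval's centre, for 6 comparisons with WT ID. Family members and the other genes inside the interval, F8a apart, form a dip at the centre in R339Q and R342C. In R448Q and K365T only part of them do. There Xlr4a (0.47 and −0.18) and Xlr3a (−0.19 and −0.25) lie above the medians of the outside genes on the proximal side (−0.90 and −0.51). The WT IAA panel has no dip. In Q418R the median of the members, −0.54, is close to that of the outside genes on the proximal side, −0.50. DXBay18 and Bgn in R448Q, with 0 reads, are drawn at fitted values that depend on the count of 1 added.

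Outside the interval, the median log2 fold change of the mutant lines was between −0.94 and −0.49 on the proximal side and between −0.20 and −0.02 on the distal side. Within 1200 kb, the 9 tested genes on the proximal side had a median log2 fold change of −0.94 in R339Q, and both libraries were below WT ID in 9 of 9. The 40 on the distal side had a median of −0.06 there, with 16 below and 9 above. In R448Q the medians were −0.90 and −0.20, with 8 of 9 and 24 of 40 genes below WT ID. In R342C they were −0.61 and −0.06, and in WT IAA −0.13 and −0.14, again with 24 of 40 distal genes below. The share of all genes below WT ID in both libraries was 32.7% in R339Q, 38.7% in R448Q, 32.6% in R342C and 32.4% in WT IAA. In R339Q the lowest of the 9 proximal genes were Gm47265 (−2.45 ± 0.46), Magea4 (−2.07 ± 0.20) and Magea10 (−1.89 ± 0.57). They lie far from the interval, within chrX:72222017-72386858. In WT ID, Magea4 had 939 ± 1.24 normalized counts, Gm47265 19.1 ± 2.95 and Magea10 24.4 ± 6.6. Gabre, in the same stretch, was at −0.94, Prrg3, farther out, at −0.40, and Cetn2, nearer, at −0.16. Low values on the proximal side were therefore not confined to genes next to the interval.

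The nearest tested gene on the proximal side was Pnma5, of the paraneoplastic antigen family, whose end lies 37.2 kb from the interval. Pnma5 fell from 2663 ± 5.10 normalized counts in WT ID to 874 ± 129 in R339Q (−1.61 ± 0.14, limma, adjusted p = 9.74e-08). It was also lower in H455R (−1.10 ± 0.14, adjusted p = 1.04e-05), R342C (−1.05 ± 0.14, adjusted p = 3.41e-05) and K365T (−0.60 ± 0.14, adjusted p = 0.00211). These 4 calls held under all 12 alternatives, with the highest adjusted p at 0.0428 for K365T. Calls in R377H (−0.53), S354F (−0.59) and R377C (−0.49) were lost without 1 or more of the libraries compared, R377H replicate 2, S354F replicate 1 and both WT ID libraries among them. Pnma5 did not pass in R448Q (−0.23 ± 0.14, adjusted p = 0.189), Q418R or WT IAA. Zfp185, an actin-associated LIM protein gene 42.8 kb away, fell in R377H (−1.35 ± 0.14, adjusted p = 6.43e-07), R448Q (−0.90 ± 0.14, adjusted p = 2.75e-05) and R339Q (−0.89 ± 0.14, adjusted p = 0.000128). It was also called lower in K365T (−0.51 ± 0.14, adjusted p = 0.00905) and Q418R (−0.43 ± 0.14, adjusted p = 0.0293), and both calls were lost without replicate 1 of WT ID. On the distal side Zfp275, 49.6 kb from the interval, was called in R339Q and R377H only, at −0.36 each, with adjusted p of 0.00933 and 0.00878. Farther out on that side, Gm18336 (chrX:73396439-73398736) had 1476 ± 127 normalized counts in WT ID and fell more. Its log2 fold change was −1.09 ± 0.14 in R339Q, −0.95 in R342C, −0.75 in H455R and −0.68 in S354F. Both libraries were also below WT ID in K365T, R377C, R377H and Q418R (−0.50 to −0.55). Those of R448Q (0.05) and WT IAA (−0.19) overlapped with WT ID. Gm18336, Gm47265, Magea4 and Magea10 were named after their values were seen, and no calls are given for them.

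Of 47 listed genes in and around the interval, F8a included, 40 were tested. In R448Q, 3 were called higher and 21 lower by limma, where 22.8% and 23.1% of all genes were called in those directions. In R377H the counts were 4 and 10 (all genes, 14.4% and 10.7%), in Q418R 1 and 10 (11.2% and 13.8%), and in R342C 2 and 9 (10% and 13.3%). R339Q (all genes, 11.8% and 9.7%) and K365T (17.7% and 14.2%) each had 2 higher and 8 lower. In WT IAA 1 was called higher and 5 lower (9.96% and 10.7%), and in H455R 3 and 4 (12.6% and 10.5%). S354F had 0 and 3 (5.49% and 4.31%), the latter being Pnma5, Nsdhl and Irak1, and R377C had Plxna3 higher with Pnma5 and Irak1 lower (4.67% and 3.43%). Leaving out 1 of the 4 libraries compared lowered these counts by over 1.5 times at least once in each comparison but R377H, down to 0 in S354F and R377C. Bgn, which encodes the matrix proteoglycan biglycan, had 12.06 ± 5.71 normalized counts in WT ID and 0 in both R448Q libraries, where it was called lower (adjusted p = 1.42e-06). It was also called lower in R377H (−1.72 ± 0.44, adjusted p = 0.00682) and higher in H455R (2.01), R339Q (1.52) and R342C (1.37). The 3 calls in the higher direction were lost without replicate 2 of WT ID, and the R377H call without replicate 1 of WT ID or of R377H.

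Relatives of the family elsewhere were mostly near or at 0 reads. Xlr, the founding gene of the family, had 10 and 15 reads in WT ID. It rose in R448Q to 66 and 73 reads (log2 fold change 2.56 ± 0.43, limma, adjusted p = 5.82e-05), where 8 of the 9 members were lower. It was also called higher in K365T (1.45 ± 0.43, adjusted p = 0.0134) and lower in R342C, with 5 and 3 reads (−1.54 ± 0.43, adjusted p = 0.0136). The K365T call was lost without replicate 1 of K365T or of WT ID, and the R342C call without replicate 1 of R342C or replicate 2 of WT ID. Slx, Slxl1 and 4930595M18Rik had 0 reads in all 24 libraries, and Sly had 1 read in total. Sycp3 fell in R448Q (−0.95 ± 0.18, adjusted p = 0.000285) and was not called in the other comparisons.

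Of 17 tested genes of the synaptonemal complex and meiosis, 10 were called higher and 3 lower in R448Q (limma; all genes, 22.8% and 23.1%), 11 and 0 in K365T (17.7% and 14.2%), and 10 and 0 in R377H (14.4% and 10.7%). In R339Q the counts were 5 and 3 (11.8% and 9.7%), in R342C 5 and 0 (10% and 13.3%), and in WT IAA 0 and 3 (9.96% and 10.7%). S354F had 5 and 1 (5.49% and 4.31%) and R377C 4 and 0 (4.67% and 3.43%). Q418R had 6 and 1 (11.2% and 13.8%) and H455R 3 and 1 (12.6% and 10.5%). Tex11, an X-linked meiosis gene, was higher in R448Q (1.87 ± 0.18, adjusted p = 6.09e-08), in R377H (1.77 ± 0.18, adjusted p = 4.22e-07) and in K365T (1.75 ± 0.18, adjusted p = 6.27e-07). Of 6 tested genes of the Rhox cluster, X-linked homeobox genes of the reproductive tract, 4 were called higher and 0 lower in R448Q, K365T and R377C, and 3 and 0 in WT IAA. The shares of all genes called higher were 22.8%, 17.7%, 4.67% and 9.96% in that order. The WT IAA calls (Rhox1, Rhox2a and Rhox5) were lost without replicate 2 of WT IAA or of WT ID. In R377C the calls of Rhox1, Rhox2a and Rhox13 were lost without replicate 2 of R377C or of WT ID. In K365T that of Rhox13 was lost without replicate 2 of K365T or of WT ID. The R448Q calls of Rhox1, Rhox2a and Rhox13 held with each library left out. R377H, Q418R and H455R each had 2 higher, R339Q 1 and S354F 0, with 0 lower (all genes higher, 14.4%, 11.2%, 12.6%, 11.8% and 5.49%). In R342C 0 were higher and 1, Rhox2a, was lower (−1.89 ± 0.44, adjusted p = 0.00464), a call lost without replicate 2 of R342C or replicate 1 of WT ID. Rhox2a was at 3.46 ± 0.44 in K365T (adjusted p = 8.04e-06).

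Genes that act on DNA methylation and germline repression were called in both directions. Among 15 genes of DNA methylation, 7 were called higher and 3 lower in R448Q (all genes, 22.8% and 23.1%), and 1 and 2 in R339Q (11.8% and 9.7%). In R342C the counts were 0 and 6 (10% and 13.3%), and in WT IAA 2 and 1 (9.96% and 10.7%). K365T had 3 and 1 (17.7% and 14.2%), R377H 4 and 2 (14.4% and 10.7%), and Q418R 3 and 3 (11.2% and 13.8%). H455R had 2 and 2 (12.6% and 10.5%), S354F 0 and 2 (5.49% and 4.31%), and R377C 0 and 1 (4.67% and 3.43%). Of 14 genes of PRC1.6, a repressor of germline genes, 4 were called higher and 0 lower in R448Q, 1 and 1 in R339Q, 0 and 4 in R342C, and 0 and 0 in WT IAA. The remaining 6 lines had 0 to 4 called higher and 0 to 3 lower, with 4 and 2 in Q418R. The shares of all genes given above apply to these counts. Of 7 genes of the X inactivation centre, Xist, the RNA that silences an X chromosome, was called lower in K365T (−2.69 ± 0.48, adjusted p = 0.000264), R377H (−2.15), R448Q (−2.00) and Q418R (−1.47). Without replicate 2 of R377H its call there was lost, and the Q418R call was lost without replicate 2 of Q418R or either WT ID library. Rlim was called lower and Chic1 higher in Q418R, Rlim was called higher in H455R, and 0 of the 7 were called in R339Q, R342C, S354F, R377C or WT IAA.

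The profile of the family over the 11 groups of 1 table was also set beside those of 14110 genes with a mean of at least 50 normalized counts. Rpl39l, a ribosomal protein gene expressed in testis and stem cells, was the most like among genes with a full name (Pearson r 0.94 over group means), followed by Zfp951, Seh1l, Ltv1, Lemd3 and Ptprtos (0.92). None of these 6 is on the X chromosome, but the rule left out DXBay18, Gm14685 and Spin2d by their level and Gm18336 by its name. Rpl39l had 1772 normalized counts on average in WT ID, 464 in R339Q and 632 in R342C, but 2271 in Q418R. Ptprtos had 458 in WT ID and 84.6 in R339Q. The lowest correlations were those of Col17a1 (−0.92), Lamb1 and Dzip1. Lamb1, a laminin chain gene, had 654 normalized counts in WT ID and 2061 in R339Q. Over 22 libraries instead of 11 group means, 5 of the 6 and 2 of the 3 genes remained.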

How the data were processed

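Total RNA of mouse embryonic stem cells was sequenced as stranded, ribosome-depleted libraries of 150-base pairs, per the labels' protocols. The submitters' processing notes name mm10 and the tools DESeq2, STAR and Trim Galore. Not given in the sources used here are versions, the read counter, the annotation, the strand setting and the handling of reads with several matches. The authors deposited a normalized signal (gene counts divided by 1 factor per library) for 22 libraries and, separately, for the 2 untreated ones, and TPM in a matching pair of tables. Whole reads were recovered from the deposited normalized counts (100% whole within 0.001). The depth was 27.8 to 77.1 M reads per library.

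Groups follow the sample titles. The 18713 genes with a mean of at least 10 normalized counts were fitted on log2(normalized count + 1) over 22 libraries with limma 3.58.1 in R 4.3.3 (1 coefficient per group, eBayes with trend, 11 residual degrees of freedom). Tests are two-sided, with Benjamini-Hochberg adjustment over all genes in each comparison, and called under 0.05. The fit was tested on simulated data. Members carry no p because they were chosen from these values. A member counted as lower or higher was at least 2-fold apart from WT ID with no overlap of the 2 + 2 libraries. The family, the gene lists and the rules for naming genes were chosen with earlier results of these data known. Named listed genes were, per comparison, called genes among the 3 largest changes of a list, or genes beside the interval. Genes most like the family were the 6 highest and 3 lowest by correlation, leaving out model and clone names. Positions are from GENCODE M21 (53186 of 55291 symbols placed once). Alternatives were TPM, a pseudocount of 0.5, quantile normalization, no filter on low values, the 2 groups alone, edgeR 4.0.16 and DESeq2 1.42.0 on recovered reads, a replicate block, a 1.5-fold limit and each replicate left out.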

Additional observations from a re-analysis of the deposited data

Results flagged for a closer look

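Xlr4a stood above WT ID in both R448Q libraries, by 0.47 on the log2 scale, while 7 other mutant lines had both libraries below WT ID. Xlr, the relative outside the interval, was above WT ID in both libraries of R448Q (2.56), K365T (1.45), Q418R (1.01) and H455R (0.92), while both R342C libraries were below. These differences between lines were not tested.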

How the results depend on the processing

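Of 900 recomputed fold changes of members, 867 moved by less than the spread between replicates, and no change of at least 2-fold with no overlap of libraries turned its sign. The 900 include fits with the replicate block, chosen after seeing the data, which cannot change a fold change or a count of members. The counts of members at least 2-fold lower stayed within 1.5 times of the main count under TPM, a pseudocount of 0.5 and edgeR's scaling. They also did so under quantile normalization, chosen after seeing the data. At 1.5-fold the count was 7 in K365T and 4 in Q418R. With 1 library left out it was 1 to 2 in Q418R, 3 to 4 in K365T, 7 to 9 in R377C, 8 to 9 in H455R and as before in the other 6 comparisons.

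Counts of called neighbour genes moved more. With TPM they were 5 in R342C, 1 in S354F and 0 in R377C, and with the 2 groups alone 5 in R342C. Quantile normalization gave 0 in R377C, and no filter on low values gave 0 in R377C and 5 in Q418R. With 1 library left out, which leaves an arm with a single library assumed to vary like the other groups, they were 2 to 5 in WT IAA, 5 to 7 in R339Q, 5 to 6 in R342C and 0 to 1 in S354F. In the other lines they were 5 to 8 in K365T, 0 to 1 in R377C, 10 to 12 in R377H, 1 to 7 in Q418R, 14 to 19 in R448Q and 3 to 4 in H455R.

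Deviations of libraries with the same replicate number correlated from −0.25 to 0.38 over 55 pairs of groups, and at 0.21 for WT IAA with WT ID. With 2 libraries per group this cannot settle whether the numbers pair samples, and the main fit left them unpaired. With the replicate block the neighbour counts ran from 3 to 24, each within 1.5 times of that without it. Each group has 1 library of each number, so the block cannot change fold changes or counts of members. Depth limits the lowest members most: values in R339Q, R342C and R448Q rest on as few as 3 reads, and copies that share sequence share reads.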
